A study of Mus musculus with 2 samples.

Results

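Cells with B cell transcripts were rare in 2 single-cell RNA libraries of MB49 tumours sorted for immune cells, 66 of 15259 kept cells. MB49 is a mouse bladder cancer line. Digested tumours were sorted for live CD45+ (immune) cells, and single cells were caught in the microwells of a BD Rhapsody cartridge, whose libraries count transcripts by unique molecular identifiers (UMIs). The tumours grew in chimeric mice, female hosts that had been lethally irradiated and then received male marrow, either Lcn2-KO or wild type. Both samples are labelled female, while the protocol also speaks of male and female mouse tumours. There was 1 library for each genotype label, Lcn2-ko and wt, and the labels do not say how many mice a library pooled, nor the hosts' own Lcn2 genotype, strain or age.

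With 1 library for each label, no test between labels was possible, and each interval below is a 95% interval that covers counting error only. The design text names neutrophils as the cells of interest, and the protocol describes the chimeras as a stand-in for deletion in myeloid cells. B cells also arise from marrow, so a marrow deletion reaches them as well as myeloid cells.

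A cell counted as a B cell when it carried at least 2 UMIs of Cd79a, Cd79b and Ms4a1 together. It also needed either at least 2 of these 3 genes or Ighm. It could hold no UMI of the Cd3 genes, the C1q genes, Xcr1 or Clec9a. That left 27 of 7547 kept cells in the library labelled Lcn2-ko and 39 of 7712 in the library labelled wt. The members were thus chosen by their own UMIs of these genes, which are described here without a test.

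B cells carry a membrane immunoglobulin whose signal passes through the CD79a and CD79b proteins, and Ms4a1 encodes the surface protein CD20. Their identity rests on transcription factors such as EBF1 and PAX5. Naive B cells carry IgM and IgD, class-switched cells carry another heavy chain, and plasma cells secrete antibody. In tumours, B cells can also present antigen on MHC class II to CD4+ T cells.

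Promoter stretches of 3 B-lineage genes are shown. Those of Cd22 and Vpreb3 hold recognition motifs of factors whose transcripts were detected in these cells. Cd79a, a marker used to choose the cells, was found in every member. Cd79a encodes a signalling chain of the B cell receptor, Cd22 an inhibitory co-receptor, and Vpreb3 a protein related to the surrogate light chain. The stretches lie upstream of the RefSeq transcription start, in the RefSeq GRCm38.p6 build, and leave out bases that GENCODE M21 places in an exon of the same gene. Capitals mark the motif matches.
Cd79a, chr7:24897247-24897380, plus strand: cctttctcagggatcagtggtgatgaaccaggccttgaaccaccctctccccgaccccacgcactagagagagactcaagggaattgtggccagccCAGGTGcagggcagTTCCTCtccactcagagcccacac
Cd22, chr7:30879029-30879176, minus strand: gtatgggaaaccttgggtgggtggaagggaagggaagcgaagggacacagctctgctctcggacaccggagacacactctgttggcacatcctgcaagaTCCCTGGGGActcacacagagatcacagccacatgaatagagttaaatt
Vpreb3, chr10:75948050-75948299, plus strand: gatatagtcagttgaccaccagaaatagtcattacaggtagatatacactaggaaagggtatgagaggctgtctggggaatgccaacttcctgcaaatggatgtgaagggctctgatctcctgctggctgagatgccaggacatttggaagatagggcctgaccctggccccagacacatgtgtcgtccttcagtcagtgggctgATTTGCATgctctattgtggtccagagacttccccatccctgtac

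In the Cd79a stretch the capitals are an E-box, CACCTG read on the other strand, 154 to 149 bases before the start, and an ETS core, GAGGAA read on the other strand, 140 to 135 bases before it. The Cd22 stretch held the EBF1 palindrome, TCCC and GGGA with 2 bases between them, 49 to 40 bases before the start. The Vpreb3 stretch held the octamer ATGCAAAT, read on the other strand, 45 to 38 bases before the start. Both strands were searched, and no 2 of these matches overlapped.

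Among the 15 identity genes and 3 markers, 13 of 18 matched the RefSeq promoter table and gave 15 windows of 250 bases. The E-box was in 6 of these 15 windows, against 17.2% of all 32851 windows, and the ETS core in 6 of 15, against 23.3%. The octamer was in 1 of 15 windows, against 1.60% of all windows. The EBF1 palindrome was in 1 of 15, against 0.779%. A match is a string of letters and was not tested as a binding site. Vpreb3 itself had 7 UMIs in 4 B cells labelled Lcn2-ko and 1 UMI in 1 B cell labelled wt.

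Transcripts of factors matching the EBF1 palindrome and the octamer were present, while counts of factors of the E-box and ETS core are not given here. Ebf1 had 40 UMIs in 20 of 27 B cells labelled Lcn2-ko and 43 UMIs in 23 of 39 labelled wt. Pou2f2, which encodes an octamer-binding factor, had 13 UMIs in 10 cells labelled Lcn2-ko and 16 UMIs in 13 cells labelled wt. Its coactivator gene Pou2af1 had 17 UMIs in 11 cells labelled Lcn2-ko and 22 UMIs in 16 cells labelled wt.

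Lcn2, the deleted gene, encodes lipocalin-2, a protein that binds iron carriers. It had 0 UMIs in the 27 B cells labelled Lcn2-ko, which allows a share of cells with a UMI of up to 11.1%, and 2 UMIs in 1 of 39 B cells labelled wt. Over all kept cells Lcn2 was at 15.6 CPM (UMIs of the gene per 1000000 UMIs) in the library labelled Lcn2-ko and 16.9 CPM in the library labelled wt. A UMI of it was found in 4.36% of kept cells labelled Lcn2-ko and 4.58% of those labelled wt. The level of Lcn2 over all kept cells thus did not separate the libraries. The deletion lay in the donor marrow, while kept cells can include tumour cells and host cells, which a marrow deletion does not reach. Which cells held the Lcn2 UMIs was not tested. The labels do not say which part of the gene was deleted, so the genotype is written here as a label throughout.

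The library labelled Lcn2-ko held 40959725 UMIs, with a median of 3700 per kept cell, and the library labelled wt held 42069099, with a median of 3727. They shared 4 barcodes, none of them a B cell. B cells were shallow, with a median of 1222 UMIs (740 to 8138) in the library labelled Lcn2-ko and 1164 UMIs (614 to 10006) in the library labelled wt. T cells, called from at least 2 Cd3 UMIs with no B cell marker and no C1q UMI, had a median of 2931 UMIs in the library labelled Lcn2-ko and 2818 in the library labelled wt. The B cell sums compared below held 43255 UMIs labelled Lcn2-ko and 67699 labelled wt. At this depth, a gene with few transcripts per cell can go unread in a cell that holds it.

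B cells made up 0.358% (0.236% to 0.520%) of kept cells in the library labelled Lcn2-ko and 0.506% (0.360% to 0.691%) in the library labelled wt. The difference, Lcn2-ko minus wt, was -0.148 percentage points, with a counting interval of -0.364 to 0.0635. A difference in B cell share was thus not detectable at this depth. A UMI of Ptprc, which encodes the CD45 protein used for the sort, was found in 19 of 27 B cells labelled Lcn2-ko and 22 of 39 labelled wt. Among kept cells with a Ptprc UMI, B cells were 19 of 5258 (0.361%) labelled Lcn2-ko and 22 of 5233 (0.420%) labelled wt, a difference of -0.0591 points (-0.311 to 0.189).

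The marker rule passed through few UMIs per cell. Members held a median of 4 marker UMIs in each library, with a maximum of 16 in the library labelled Lcn2-ko and 10 in the library labelled wt. Just inside the limit were 5 members labelled Lcn2-ko and 9 labelled wt with 2 marker UMIs. Just outside it were 2 cells in each library with 1 marker UMI, Ighm and no excluded gene. Among cells that met both marker conditions, Cd3 UMIs left out 12 in each library and C1q UMIs left out 5 labelled Lcn2-ko and 4 labelled wt.

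Cd79a had 106 UMIs (exact Poisson interval 86.8 to 128) in 27 of 27 cells labelled Lcn2-ko and 128 UMIs (107 to 152) in 39 of 39 labelled wt. Ms4a1 had 29 UMIs in 16 cells labelled Lcn2-ko and 26 UMIs in 18 labelled wt. Cd79b had 9 UMIs in 7 cells labelled Lcn2-ko and 10 UMIs in 10 labelled wt. The rule thus rested mainly on Cd79a, and 9 members labelled Lcn2-ko and 16 labelled wt entered with 1 of the 3 genes plus Ighm.

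The label B cell held against genes that the rule did not use. All 15 identity genes, among them Pax5, Ebf1, Bank1 and Blk, were detected in the B cells. A member held a median of 6 of the 15 in each library, from 3 to 10 in cells labelled Lcn2-ko and from 1 to 11 in cells labelled wt. The T cells, which were more deeply read, held a median of 0. Members that entered through Ighm held a median of 6 identity genes in each library, and members with at least 2 of the 3 markers held 5.5 labelled Lcn2-ko and 6 labelled wt.

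Cells outside the rule also carried such genes. The 12 cells labelled Lcn2-ko that a Cd3 UMI left out had a median of 4.5 identity genes, and the 12 labelled wt had 3.5. Their median depth was 3374 UMIs labelled Lcn2-ko and 3562 UMIs labelled wt. The rule thus also left out cells with B-lineage transcripts, and 66 is a count under this rule.

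Genes among the 15 with the highest ratio of B cells over all other kept cells, taken at the lower of both libraries and at 200 CPM or more in B cells of each, included Ms4a1, Cd79a, Iglc2, Fcer2a, Fcmr, Pax5, Ighd, Ebf1, Bank1, Ly6d, Blk, Pou2af1, Cd22 and Fcrla. Fcer2a encodes the low-affinity IgE receptor CD23 and Fcmr a receptor for IgM. The ratio for Ms4a1 was 2722 in the library labelled Lcn2-ko and 1455 in the library labelled wt, and that for Fcrla was 128 in the library labelled Lcn2-ko and 87.1 in the library labelled wt. These ratios describe the cells that the rule picked and are no test.

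**Figure D1:**
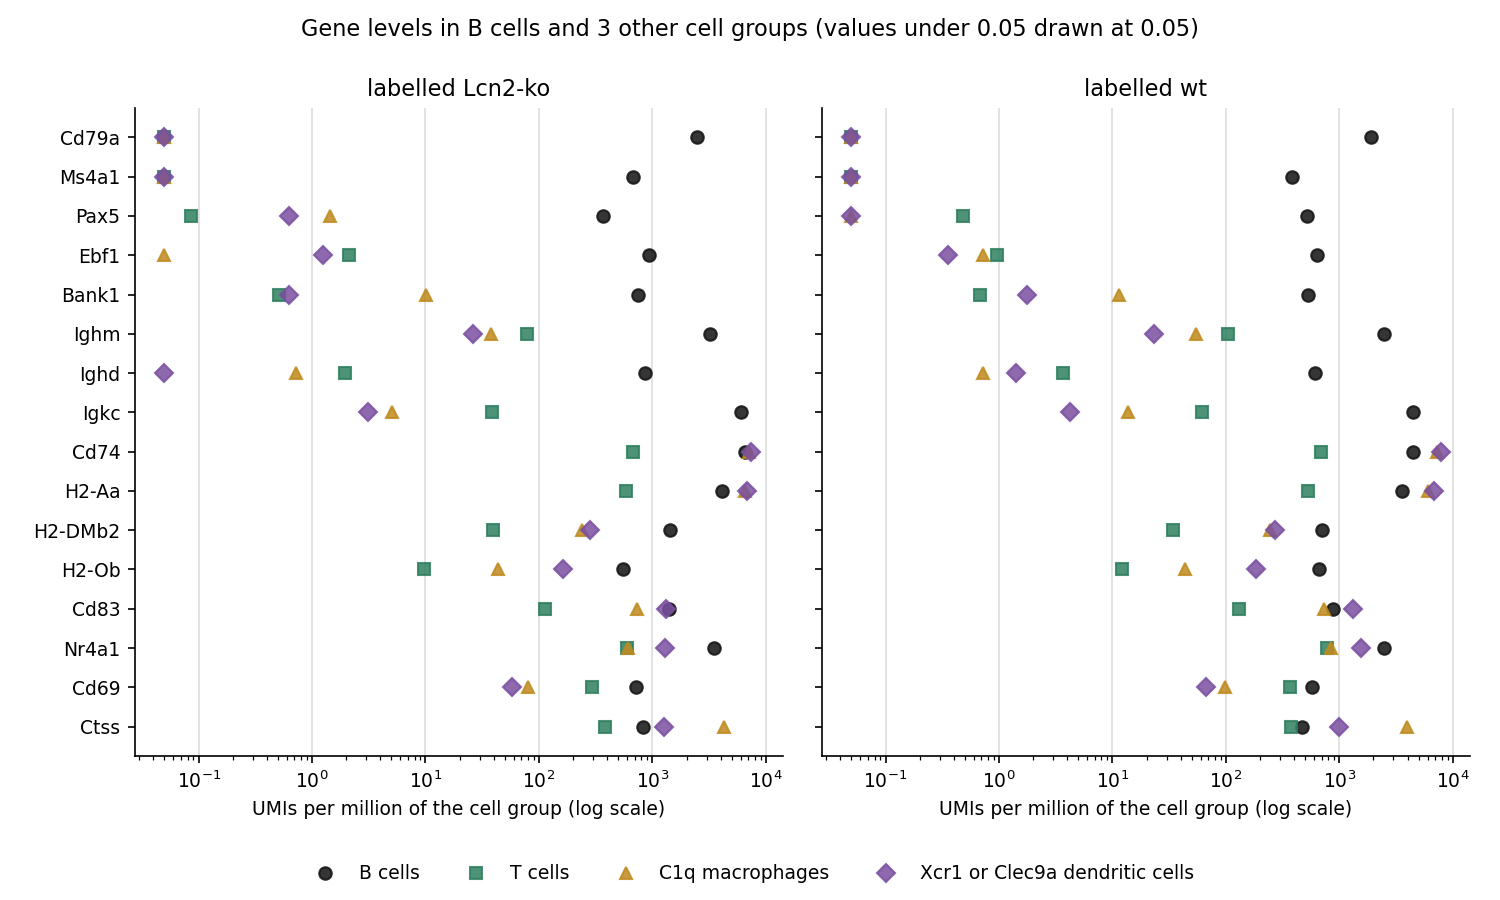
Level of 16 genes in CPM (log axis) in B cells, T cells, C1q macrophages and Xcr1 or Clec9a dendritic cells, with the library labelled Lcn2-ko on the left and the library labelled wt on the right; each symbol is 1 sum over cells. Cd79a and Ms4a1 are at 0 in the other groups because those groups were required to lack them, Ighm reaches 77.8 CPM in T cells labelled Lcn2-ko and 104 CPM in those labelled wt, and values under 0.05 CPM are drawn at 0.05.

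A few members also carried transcripts of other cell types, and these are given before the comparisons because they hold many of the UMIs. With lists of T cell, NK cell, neutrophil, macrophage, dendritic cell, mast cell and tumour or stroma markers, 1 of 27 cells labelled Lcn2-ko and 4 of 39 labelled wt had at least 5 UMIs of 1 list. Tumour or stroma markers (such as Krt8, Krt18, Col1a1 and Sparc) reached 75 UMIs in 1 cell labelled Lcn2-ko, and 119 and 74 UMIs in 2 cells labelled wt. These 3 cells were the deepest, at 8138 UMIs labelled Lcn2-ko and 10006 and 9969 UMIs labelled wt. In the others labelled wt, 1 cell of 2324 UMIs had 26 neutrophil marker UMIs and 1 of 4339 UMIs had 11 T cell and 14 NK cell marker UMIs.

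Together the 1 cell labelled Lcn2-ko held 18.8% of the B cell UMIs of its library and the 4 labelled wt held 39.3%. The remaining 26 cells labelled Lcn2-ko and 35 labelled wt reached at most 3 UMIs of any of these lists, with depths of at most 2699 UMIs labelled Lcn2-ko and 1800 labelled wt. Results below are given for all members and, for some of them, also without these 5 cells. Levels in CPM are over all members only. The UMIs of the 5 cells thus count in the scale of each such level, and more so in the library labelled wt. Over all members, the tumour and stroma list had 80 UMIs from 6 of 8 genes labelled Lcn2-ko, with Col1a2 and Timp1 at 0, and 206 UMIs from 6 of 8 genes labelled wt, with Col1a2 and Lgals7 at 0. Without the 5 cells the list had 5 UMIs labelled Lcn2-ko and 9 UMIs labelled wt.

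The neutrophil list had 11 UMIs from 2 of 8 genes labelled Lcn2-ko, with S100a8 and S100a9 at 0, and 41 UMIs from 7 of 8 genes labelled wt, or 4 UMIs labelled Lcn2-ko and 1 labelled wt without the 5 cells. The T cell list had 14 UMIs from 5 of 11 genes labelled Lcn2-ko and 27 UMIs from 7 of 11 labelled wt, or 14 UMIs labelled Lcn2-ko and 15 labelled wt without them. A plasmacytoid dendritic cell list was not among the lists used to find the 5 cells. It had 23 UMIs from 3 of 9 genes in each library, with at most 4 UMIs in a cell labelled Lcn2-ko and 9 in a cell labelled wt. Its sum was 532 CPM labelled Lcn2-ko and 340 CPM labelled wt, against 395 CPM in T cells labelled Lcn2-ko and 373 CPM in those labelled wt. Siglech, a defining gene of plasmacytoid dendritic cells, was at 0 in both libraries. Whether the 5 cells were doublets was not tested beyond Scrublet, whose highest 4% of scores held 0 B cells labelled Lcn2-ko and 1 labelled wt.

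**Figure D2:**
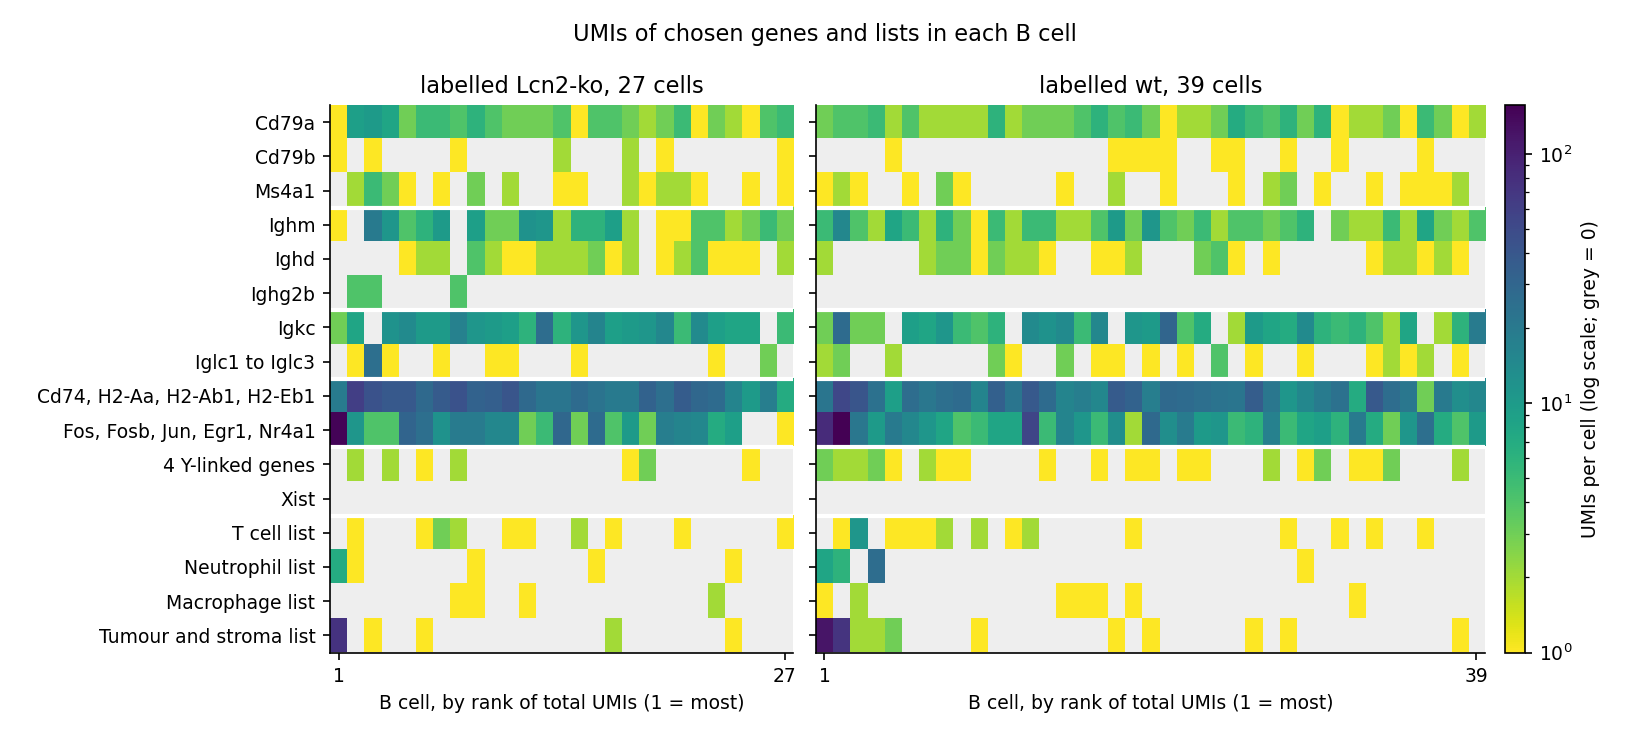
UMIs in each of the 27 B cells labelled Lcn2-ko (left) and 39 labelled wt (right), ordered by total UMIs from the deepest, for marker genes, immunoglobulin chains, MHC class II, immediate-early and sex-linked genes, and for lists of other cell types; colour gives UMIs per cell on a log scale and grey is 0. Tumour and stroma UMIs sit in the deepest cells (75 in 1 cell labelled Lcn2-ko, 119 and 74 in 2 labelled wt), Xist is at 0 throughout, and Ighg2b appears in 3 cells labelled Lcn2-ko.

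The heavy chain transcripts were those of unswitched B cells in most members, a state that the rule favours. Through Ighm alone as second gene entered 9 members labelled Lcn2-ko and 16 labelled wt. Ighm, the constant region of IgM, had 138 UMIs (116 to 163) in 24 of 27 cells labelled Lcn2-ko and 166 UMIs (142 to 193) in 38 of 39 labelled wt, though it helped choose the cells. Ighm is a weak sign of a B cell here, since 21.6% of cells with at least 2 Cd3 UMIs in the library labelled Lcn2-ko and 25.7% in the library labelled wt also carried it, at a median depth of 3182 UMIs labelled Lcn2-ko and 3105 labelled wt. Ighd, the constant region of IgD, was not used by the rule. It had 37 UMIs in 20 of 27 cells labelled Lcn2-ko (74.1%, 53.7% to 88.9%) and 41 UMIs in 22 of 39 labelled wt (56.4%, 39.6% to 72.2%). In the Cd3 cells its share was 0.878% labelled Lcn2-ko and 1.40% labelled wt. At 1000 UMIs per cell Ighd was in 18 of 24 B cells labelled Lcn2-ko and 13 of 30 labelled wt, a difference of 31.7 percentage points (5.19 to 52.2), against 17.7 points (-5.91 to 37.7) at full depth. Thinning left out the 3 cells labelled Lcn2-ko and 9 labelled wt with fewer than 1000 UMIs. The 2 differences thus rest on different cells as well as different depths. Thinning is also a random draw, whose error the interval leaves out.

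Every B cell with Ighd also had Ighm, 42 of 66. Ighm with neither Ighd nor a switched heavy chain was found in 3 of 27 cells labelled Lcn2-ko (11.1%) and 16 of 39 labelled wt (41.0%). The difference was -29.9 percentage points (-47.1 to -7.97). Ighm was a gene of the rule, through which 9 members labelled Lcn2-ko and 16 labelled wt entered. The share of this class thus depends in part on the rule and is given as a description only. After thinning each cell to 1000 UMIs, which left out 3 cells labelled Lcn2-ko and 9 labelled wt, the class held 1 of 24 cells labelled Lcn2-ko and 14 of 30 labelled wt. Without the 5 cells with markers of other types it held 2 of 26 cells labelled Lcn2-ko and 13 of 35 labelled wt.

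Switched heavy chains were found in few members, but the rule can lose cells that lack Ighm. It left out 4 cells labelled Lcn2-ko and 1 labelled wt with at least 2 marker UMIs but no second marker gene and no Ighm. Ighg2b, the constant region of IgG2b, had 12 UMIs in 3 cells labelled Lcn2-ko, 4 in each, and 0 UMIs in the 39 cells labelled wt, which allows a share of up to 7.69%. Set against 3 counts in the library labelled wt, the 12 UMIs gave a 6.26-fold higher level in B cells labelled Lcn2-ko. That figure leaves out the error of the 12 UMIs, which lay in 3 cells and are not independent. By cells the difference was 11.1 percentage points, with an interval of -0.426 to 28.1 that spans 0. Of the 3 cells, 2 had no Ighm and no Ighd UMI, and the other had 20 Ighm and 3 Ighg3 UMIs with 25 lambda light chain UMIs. Cells with at least 2 Cd3 UMIs had Ighg2b in 1 of 3987 labelled Lcn2-ko and 0 of 3559 labelled wt. Ighg1, Ighg2c, Igha and Ighe were at 0 in B cells of both libraries.

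The light chain was mostly kappa. Igkc, the kappa constant region, had 263 UMIs (232 to 297) in 25 of 27 cells labelled Lcn2-ko and 300 UMIs (267 to 336) in 34 of 39 labelled wt. A lambda constant region (Iglc1, Iglc2 or Iglc3, summed here) was found in 9 cells labelled Lcn2-ko and 18 labelled wt. Every B cell had a light chain UMI, 39 of 66 with kappa alone, 7 with lambda alone and 20 with both. Lambda outnumbered kappa in 2 of 27 cells labelled Lcn2-ko (7.41%, 0.910% to 24.3%) and 5 of 39 labelled wt (12.8%, 4.30% to 27.4%).

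**Figure D3:**
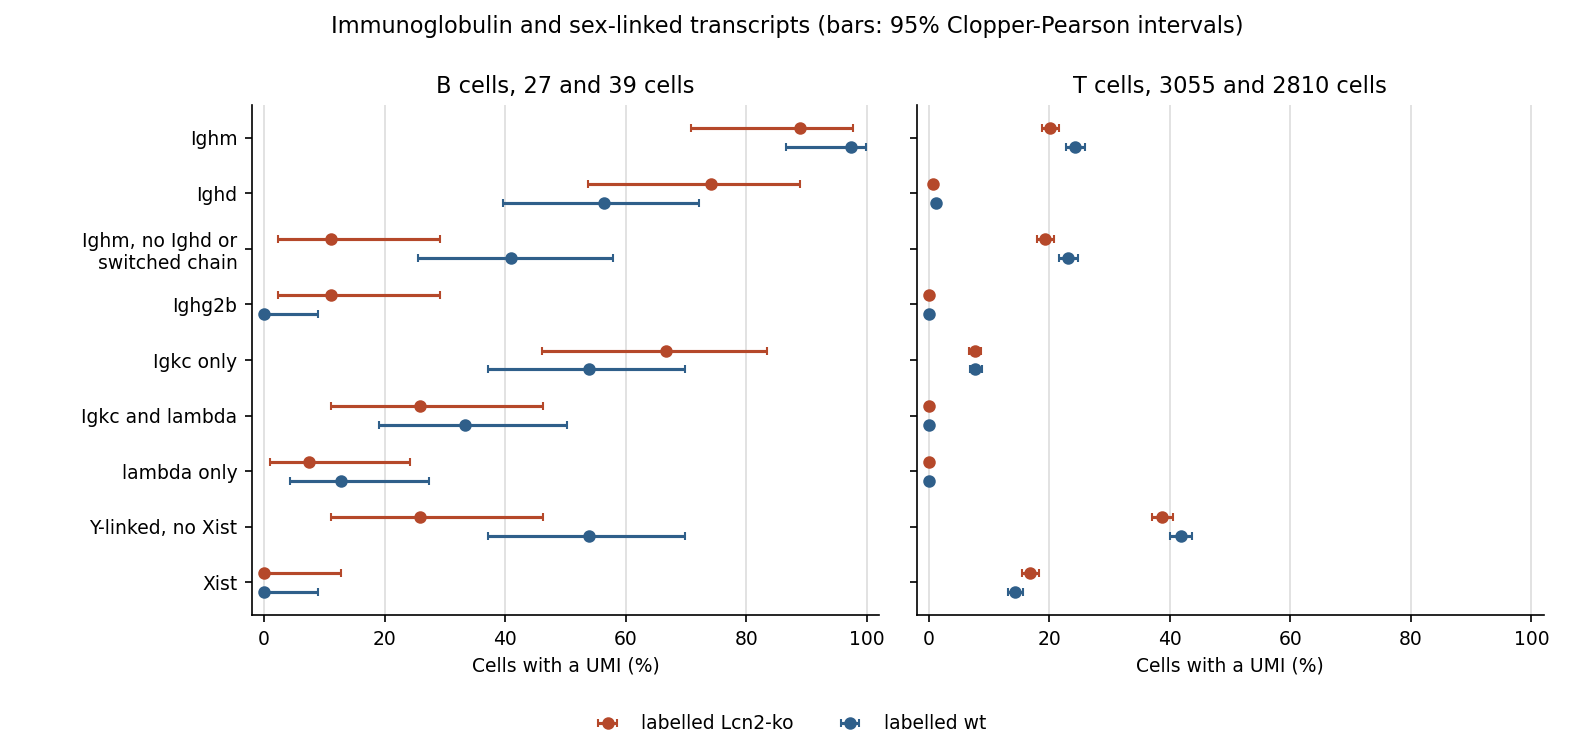
Share of cells with a UMI of each class of immunoglobulin or sex-linked transcript, with 95% Clopper-Pearson intervals, in B cells (left) and T cells (right), for the library labelled Lcn2-ko (red, upper point) and the library labelled wt (blue, lower point). Ighd is in 74.1% of B cells labelled Lcn2-ko and 56.4% of those labelled wt, and Xist is in 16.9% of T cells labelled Lcn2-ko and 14.4% of those labelled wt and was read in 0 B cells.

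Xist was not read in any B cell. This RNA, expressed from the inactive X chromosome of female cells, had 0 UMIs in 27 B cells labelled Lcn2-ko, which allows a share of up to 11.1%, and 0 in 39 labelled wt, which allows up to 7.69%. It was found in 16.9% of T cells labelled Lcn2-ko and 14.4% of those labelled wt. It was rare in myeloid cells too, in 1.43% of C1q macrophages labelled Lcn2-ko and 1.97% of those labelled wt, and in 0.559% of Xcr1 or Clec9a dendritic cells labelled Lcn2-ko and 1.42% of those labelled wt. At 1000 UMIs per cell the T cell share was 8.65% labelled Lcn2-ko, under the 12.5% that 0 of 24 thinned B cells allow, and 8.06% labelled wt, under the 10.0% that 0 of 30 allow. Within each library alone, a lower Xist share in B cells than in T cells was therefore not resolved at equal depth. Pooling the 0 of 24 and the 0 of 30 would allow a smaller share than either limit, and a pooled comparison with T cells was not tested.

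A UMI of Ddx3y, Eif2s3y, Uty or Kdm5d, genes of the Y chromosome, was found in 7 of 27 B cells labelled Lcn2-ko (25.9%, 11.1% to 46.3%) and 21 of 39 labelled wt (53.8%, 37.2% to 69.9%). The difference was -27.9 percentage points (-47.3 to -3.73). Thinned to 1000 UMIs, the shares were 5 of 24 cells labelled Lcn2-ko and 13 of 30 labelled wt, a difference of -22.5 points (-43.5 to 2.80). Without the 5 cells with markers of other types they were 7 of 26 labelled Lcn2-ko and 17 of 35 labelled wt, and that difference of -21.6 points also had an interval that spans 0 (-42.3 to 3.04). In other cells the share is given for those with such a UMI and none of Xist. At 1000 UMIs it was 15.9% in T cells labelled Lcn2-ko and 17.5% in those labelled wt. In C1q macrophages it was 20.2% labelled Lcn2-ko and 9.23% labelled wt, a difference of 10.97 points (4.01 to 17.9) where full depth gave -0.0821 points. Thinning thus moved a difference of this measure between the same libraries by more than its counting interval.

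All 12 genes of the follicular and naive list, which marks recirculating B cells, were detected in B cells of both libraries. They include Fcer2a, with 14 UMIs in 9 cells labelled Lcn2-ko and 27 UMIs in 16 labelled wt. Klf2, a transcription factor of quiescent lymphocytes, had 62 UMIs in 21 cells labelled Lcn2-ko and 86 UMIs in 29 labelled wt. Klf2 was at 1433 CPM in B cells labelled Lcn2-ko and 1270 CPM in B cells labelled wt, against 196 CPM in T cells labelled Lcn2-ko and 272 CPM in T cells labelled wt.

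Several defining genes of germinal centre and plasma cells were at 0, while their lists as a whole were near the level in T cells. In the germinal centre list Mef2b, Gcsam, Rgs13 and Eaf2 were at 0 in both libraries. Bcl6 had 4 UMIs labelled Lcn2-ko and 5 labelled wt. The list summed to 208 CPM in B cells labelled Lcn2-ko and 177 CPM in B cells labelled wt, against 134 CPM in T cells labelled Lcn2-ko and 149 CPM in T cells labelled wt. Among plasma cell genes Jchain, Prdm1, Tnfrsf17 and Derl3 were at 0 in both. Sdc1 had 2 UMIs in 1 cell labelled Lcn2-ko and 15 UMIs in 2 cells labelled wt, and 0 in both without the cells with markers of other types. The plasma cell list summed to 485 CPM in B cells labelled Lcn2-ko and 591 CPM in B cells labelled wt, against 495 CPM in T cells labelled Lcn2-ko and 480 CPM in T cells labelled wt. Of the marginal zone and B-1 list 6 of 12 genes were measured. Cr2, a complement receptor gene, had 2 UMIs in 2 cells labelled Lcn2-ko and 7 UMIs in 7 cells labelled wt. Of the memory list 2 of 9 genes were measured, and Tbx21, which encodes T-bet, had 1 UMI in each library.

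Cytokine genes gave little signal. Il10, Il6, Lta and Ifng had 0 UMIs in both libraries, as did Ebi3 and Havcr1. Tgfb1 had 5 UMIs labelled Lcn2-ko and 11 labelled wt, and Tnf had 3 UMIs in each.

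MHC class II transcripts were found in every B cell. Cd74, the invariant chain that guides class II molecules, was found in all 66 cells, with 282 UMIs (250 to 317) labelled Lcn2-ko and 304 UMIs (271 to 340) labelled wt. Its per-cell values ran from 3 to 23 with a median of 10 in cells labelled Lcn2-ko, and from 2 to 18 with a median of 8 in cells labelled wt. Over all members, with the cells with markers of other types included, the level was 6519 CPM in B cells labelled Lcn2-ko and 4490 CPM in B cells labelled wt. In the library labelled Lcn2-ko T cells held 675 CPM, C1q macrophages 7067 CPM and Xcr1 or Clec9a dendritic cells 7384 CPM. In the library labelled wt T cells held 694 CPM, C1q macrophages 7209 CPM and those dendritic cells 7802 CPM.

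Levels of 3 genes of peptide loading are set beside those in other antigen-presenting cells. H2-DMb2, a chain of the peptide exchange factor H2-DM, was at 1433 CPM in B cells labelled Lcn2-ko and 709 CPM in B cells labelled wt, against 241 CPM in C1q macrophages labelled Lcn2-ko and 242 CPM in those labelled wt. In Xcr1 or Clec9a dendritic cells it was at 279.6 CPM labelled Lcn2-ko and 273 CPM labelled wt. H2-Ob, a chain of the H2-DM inhibitor H2-O, was at 555 CPM in B cells labelled Lcn2-ko and 665 CPM in B cells labelled wt, against 162 CPM in those dendritic cells labelled Lcn2-ko and 184 CPM in those labelled wt. In C1q macrophages it was at 43.4 CPM labelled Lcn2-ko and 43.7 CPM labelled wt. Both genes were thus at their highest level in B cells among these 3 cell groups, though a cell could be in both the macrophage and the dendritic cell group. Ctss, which encodes the protease cathepsin S that trims the invariant chain, was at 832 CPM in B cells labelled Lcn2-ko and 473 CPM in B cells labelled wt, against 4292 CPM in C1q macrophages labelled Lcn2-ko and 3916 CPM in those labelled wt. In the dendritic cells it was at 1263 CPM labelled Lcn2-ko and 992 CPM labelled wt, so of these 3 groups B cells had the lowest level.

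All 11 genes of the MHC class II list were measured, that is at 50 CPM or more in either library. Among them 3 were at least 1.5-fold higher in B cells labelled Lcn2-ko and 1 was at least 1.5-fold lower, with a median log2 ratio of 0.45. Over all 4557 measured genes 29.1% were that much higher and 26.8% that much lower, with a median of 0.02. Without the cells with markers of other types the median of the list was 0.24, with 2 genes higher and 1 lower, against a median of 0.07 over 4712 measured genes, 27.1% higher and 22.6% lower. The log2 ratio of the summed list was 0.44 (0.31 to 0.57) in all members and 0.22 (0.09 to 0.36) without those cells. H2-DMb2 had 62 UMIs (47.5 to 79.5) labelled Lcn2-ko and 48 (35.4 to 63.6) labelled wt, a log2 ratio of 1.02 (0.45 to 1.59), and 0.86 (0.26 to 1.47) without those cells. H2-Aa, a chain of the I-A molecule, differed less, with a log2 ratio of 0.18 (-0.11 to 0.47).

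Nr4a1 was read in most B cells. This gene, which encodes an orphan nuclear receptor and is induced by antigen receptor signals, had 150 UMIs (127 to 176) in 21 cells labelled Lcn2-ko and 168 UMIs (144 to 195) in 38 labelled wt. At 1000 UMIs per cell it was in 83.3% of B cells in each library. In Xcr1 or Clec9a dendritic cells it was in 58.4% labelled Lcn2-ko and 66.7% labelled wt at that depth. At full depth it was in 92.2% of those labelled Lcn2-ko and 94.0% of those labelled wt. Its level was 3468 CPM in B cells labelled Lcn2-ko and 2482 CPM in B cells labelled wt, against 595 CPM in T cells labelled Lcn2-ko and 773 CPM in T cells labelled wt. Cd83, a surface protein gene of activated B cells and dendritic cells, had 60 UMIs in 18 cells labelled Lcn2-ko and 59 UMIs in 23 labelled wt. Cd69, an early activation marker, had 31 UMIs in 12 cells labelled Lcn2-ko and 39 UMIs in 22 labelled wt.

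Of the 19 activation genes 15 were measured. Among these 7 were at least 1.5-fold higher in B cells labelled Lcn2-ko and 1 lower, with a median log2 ratio of 0.48. All measured genes gave 29.1% higher and 26.8% lower. Without the cells with markers of other types 5 of 15 were higher and 0 lower, with a median of 0.44, against 27.1% and 22.6% of all measured genes. The ratio of Nr4a1 itself moved with this choice, with a log2 value of 0.48 (0.16 to 0.81) in all members and 0.10 (-0.23 to 0.44) without those cells.

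Immediate-early genes such as Fos and Junb answer to growth signals and also to the handling of tissue. The tumours were digested for 45 min at 37 degrees Celsius, and dissociation cannot be told apart from a state in the tumour here. Fos had 72 UMIs in 18 cells labelled Lcn2-ko and 191 UMIs in 30 labelled wt, with a single cell of 76 UMIs labelled wt. Its log2 ratio was -0.76 (-1.17 to -0.36) in all members and -0.34 (-0.91 to 0.22) without the cells with markers of other types. Junb had 15 UMIs in 11 cells labelled Lcn2-ko and 51 UMIs in 26 labelled wt, a log2 ratio of -1.12 (-2.06 to -0.27), and -1.52 (-2.64 to -0.52) without those cells. Over the 20 genes of this list the median was 0.02, with 3 genes at least 1.5-fold higher and 6 lower, against 29.1% and 26.8% of all measured genes. Without those cells it was -0.10, with 4 higher and 5 lower, and with at least 3 marker UMIs asked of each member it was -0.35.

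The type I interferon list summed to 3653 CPM in B cells labelled Lcn2-ko and 2910 CPM in B cells labelled wt, against 3493 CPM in T cells labelled Lcn2-ko and 3268 CPM in T cells labelled wt. In B cells much of it lay in Ly6e, with 66 UMIs in 22 cells labelled Lcn2-ko and 83 UMIs in 30 labelled wt. Of 24 genes of this list 11 were measured, 3 at least 1.5-fold higher and 3 lower in B cells labelled Lcn2-ko, with a median log2 ratio of 0.23. All measured genes gave 29.1% higher and 26.8% lower. Without the cells with markers of other types 8 were measured, 4 higher and 1 lower, with a median of 0.46, against 27.1% and 22.6% of all measured genes. Rsad2, an antiviral gene, had 0 UMIs labelled Lcn2-ko and 11 labelled wt, and 0 in both without the cells with markers of other types. Of 20 interferon gamma genes 10 were measured, 3 higher and 3 lower, with a median of 0.07. Without those cells 8 were measured, 3 higher and 1 lower, with a median of 0.23, while asking for at least 3 marker UMIs turned the median to -0.32. Irf1, a transcription factor gene of that response, had 8 UMIs in 3 cells labelled Lcn2-ko and 29 UMIs in 13 labelled wt.

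B cell receptor signalling genes had ratios on both sides. Of 18 genes 16 were measured, 6 at least 1.5-fold higher and 4 lower in B cells labelled Lcn2-ko, with a median log2 ratio of 0.22, against 29.1% higher and 26.8% lower of all measured genes. Without the cells with markers of other types 17 were measured, 3 higher and 5 lower, with a median of 0.02, against 27.1% and 22.6%. Cd22 had 20 UMIs labelled Lcn2-ko and 15 labelled wt, a log2 ratio of 1.06 (0.02 to 2.13). Blnk, the adaptor of the receptor, had 5 UMIs in 5 cells labelled Lcn2-ko and 17 UMIs in 13 labelled wt, a log2 ratio of -1.12 (-2.91 to 0.38). The 15 identity genes had a median of 0.25 in all members and -0.10 without the cells with markers of other types, so their direction turned with that choice. Of 17 B lineage transcription factor genes 16 were measured, 1 at least 1.5-fold higher and 3 lower, with a median of 0.10. Without those cells 17 were measured, 0 higher and 4 lower, with a median of -0.21. Pax5 had 16 UMIs in 12 cells labelled Lcn2-ko and 35 UMIs in 21 labelled wt, and Irf8, which encodes a factor of B and myeloid cells, had 11 UMIs in 8 cells labelled Lcn2-ko and 27 UMIs in 17 labelled wt.

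Of 15 trafficking receptors 11 were measured, 2 at least 1.5-fold higher and 3 lower, with a median log2 ratio of 0.23. Of 16 survival and innate receptors 10 were measured, 5 higher and 1 lower, with a median of 0.57. All measured genes gave 29.1% higher and 26.8% lower. Without the cells with markers of other types the trafficking median turned to -0.21, with 2 of 12 higher and 2 lower. That of the survival and innate receptors was 0.55, with 5 of 11 higher and 1 lower, against 27.1% and 22.6% of all measured genes. Gpr183, which encodes the oxysterol receptor EBI2 that guides B cells in lymphoid tissue, had 1 UMI in 1 cell labelled Lcn2-ko and 13 UMIs in 9 cells labelled wt, a log2 ratio of -3.05 (-8.46 to -0.32). Cd180, a Toll-like receptor relative of B cells, had the same counts, 1 UMI in 1 cell labelled Lcn2-ko and 13 UMIs in 9 labelled wt. Cxcr4, a chemokine receptor gene, had 34 UMIs labelled Lcn2-ko and 51 labelled wt, a log2 ratio of 0.06 (-0.61 to 0.72). Ccr6, another chemokine receptor gene, had 6 UMIs in 3 cells labelled Lcn2-ko and 1 UMI labelled wt. Gpr183 had the lowest ratio of its list and Cd180 that of the other, a choice for which no interval here makes allowance.

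A total of 610 genes reached 200 CPM in B cells of 1 label or the other and 30 UMIs in the 66 cells. Of them, 22 were at least 2-fold higher in B cells labelled Lcn2-ko (3.61%) and 30 at least 2-fold lower (4.92%), or 8.52% either way. Without the 5 cells with markers of other types 397 genes passed these limits, with 12 higher (3.02%) and 9 lower (2.27%), or 5.29% either way. The lists of genes at the ends of the ratios changed with this choice, in part because fewer genes passed the limits. Of the 10 highest in all members 3 were among the 10 highest without those cells, namely Ly6a, Hnrnpdl and Cybb, and of the 10 lowest 1 was, Hnrnpul1. A gene could thus leave a list through the limits while its ratio stayed. Cebpb, Etf1 and Capza1 left the lowest 10 with log2 ratios of -2.86, -2.02 and -1.84 without those cells. Others left with a turned ratio, Pgk1 at -0.26 and Thbs1 at 0.23.

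Ly6a, which encodes the surface protein Sca-1, had 48 UMIs in 12 cells labelled Lcn2-ko and 23 UMIs in 8 labelled wt, with 20 UMIs in the top cell labelled Lcn2-ko. Its log2 ratio was 1.71 (0.96 to 2.49) in all members and 2.03 (0.86 to 3.38) without those 5 cells. Ly6a was at 1030 CPM in T cells labelled Lcn2-ko and 844 CPM in T cells labelled wt, so its transcripts were not particular to B cells. Cybb, a subunit of the phagocyte NADPH oxidase, had 33 UMIs in 14 cells labelled Lcn2-ko and 22 UMIs in 9 labelled wt, a log2 ratio of 1.23 (0.41 to 2.08). Hnrnpdl, an RNA-binding protein gene, had 24 UMIs in 16 cells labelled Lcn2-ko and 13 UMIs in 12 labelled wt, a log2 ratio of 1.53 (0.50 to 2.63).

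Most UMIs of Pgk1, Thbs1 and Fn1 lay in the 5 cells with markers of other types in each library. Pgk1, a glycolytic enzyme gene, had 26 UMIs labelled Lcn2-ko, 21 of them in 1 cell, and 15 UMIs labelled wt. Its log2 ratio was 1.44 (0.47 to 2.46) in all members and -0.26 without the 5 cells. Thbs1, a gene of the extracellular matrix protein thrombospondin-1, had 9 UMIs labelled Lcn2-ko and 78 labelled wt, of which 3 labelled Lcn2-ko and 3 labelled wt lay outside those cells. Fn1, the fibronectin gene, had 10 UMIs labelled Lcn2-ko and 60 labelled wt, of which 2 labelled Lcn2-ko and 6 labelled wt lay outside them. Its log2 ratio outside them was -1.36 (-4.70 to 1.12).

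Capza1 and Cebpb were more than 2-fold lower with and without those 5 cells. Capza1, an actin capping protein gene, had 5 UMIs in 4 cells labelled Lcn2-ko and 29 UMIs in 20 labelled wt, a log2 ratio of -1.89 (-3.62 to -0.50), and -1.84 (-3.61 to -0.40) without those cells. Cebpb, a transcription factor gene, had 8 UMIs in 3 cells labelled Lcn2-ko and 39 UMIs in 16 labelled wt, a log2 ratio of -1.64 (-2.95 to -0.52), and -2.86 (-6.02 to -0.79) without those cells. The named genes are the extremes of these 2 libraries, and no replicate bears on any of them.

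**Figure D4:**
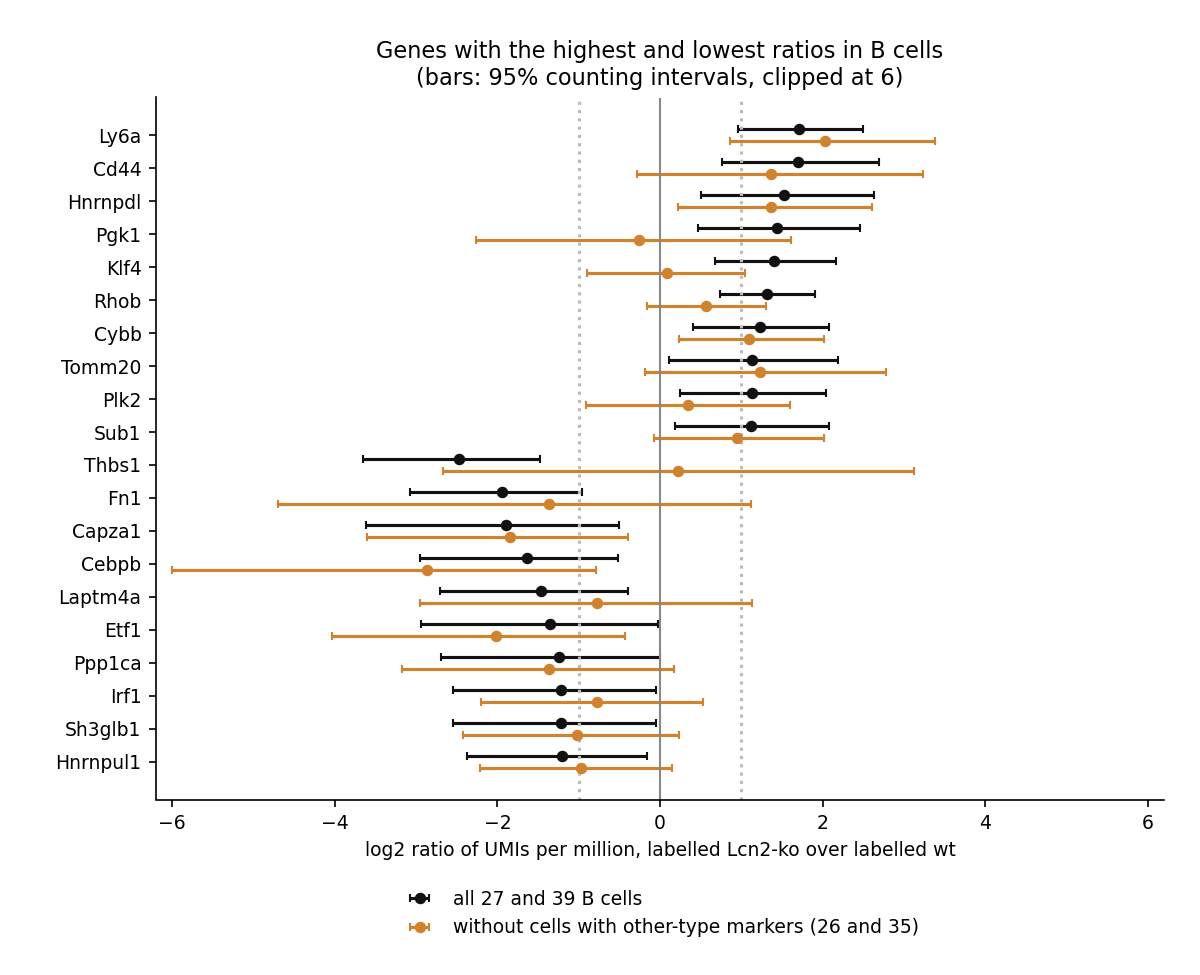
Log2 ratio of CPM, labelled Lcn2-ko over labelled wt, of the 20 named genes at the upper and lower ends in B cells, for all members (black) and without the 5 cells with markers of other cell types (orange); bars are 95% counting intervals, clipped at 6, and dotted lines mark 2-fold. Ly6a stays near 2 (1.71 and 2.03), while Pgk1 turns from 1.44 to -0.26 and Thbs1 from -2.47 to 0.23.

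Of 10 iron and Lcn2 genes 4 were measured and 0 of them were 1.5-fold apart, against 29.1% higher and 26.8% lower of all measured genes. With 4 genes this count does not show that iron genes were unchanged. Fth1, ferritin heavy chain, had 114 UMIs in 23 cells labelled Lcn2-ko and 192 UMIs in 36 labelled wt, a log2 ratio of -0.11 (-0.45 to 0.24).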

How the data were processed

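For each of 2 libraries the deposited matrix gives raw UMI counts of 31253 genes in single barcodes. Cell Ranger and the mm10 build are named per the submitters' processing notes, and their versions are not given in the sources used here. No barcode had fewer than 501 UMIs. A barcode was kept if it held 200 or more genes and no more than 20% of its UMIs were mitochondrial. Groups came from the genotype label.

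UMIs were summed over B cells and scaled to CPM. Intervals are exact Poisson (sums), Clopper-Pearson (shares), Newcombe (differences of shares) and exact conditional binomial (ratios), at 95%. They cover counting error only, and a count of 0 was read as allowing 3 counts. T cells needed 2 Cd3 UMIs, C1q macrophages 3 C1q UMIs and dendritic cells 2 Xcr1 or Clec9a UMIs, all with no B cell marker. T cells also had to lack C1q UMIs, and the macrophages and dendritic cells had to lack Cd3 UMIs. The macrophage and dendritic cell rules did not exclude each other, so a cell could be in both groups. Doublets were scored with Scrublet at an expected rate of 0.06 and left in, and the highest 4% of scores served as an alternative.

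The named genes are the rule genes, Lcn2, the 15 highest ratios over other cells, up to 6 measured members of each list, and the 10 highest and 10 lowest ratios among genes with a UMI in at least 10 B cells. Mitochondrial, Rpl, Rps, immunoglobulin variable and predicted genes were left out of the last. The members and the 30 lists were chosen with earlier results of these data known. Some genes described for their counts were chosen after their values were seen, such as H2-DMb2 and Ighg3. Some genes of these lists are not reported here.

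Alternatives covered the marker limit, Ighm, excluded lineages, the gene and mitochondrial limits, doublets, thinning to 1000 UMIs, scaling, single top cells and the abundance limit. Leaving out cells with at least 5 UMIs of another type's markers was added after seeing the data. Gene positions came from GENCODE M21 and promoters from RefSeq GRCm38.p6. Code ran in Python 3.11.15 with numpy 2.4.6, scipy 1.17.1, pandas 2.3.3, scanpy 1.11.5 and matplotlib 3.10.9, and was tested on simulated data.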

Additional observations from a re-analysis of the deposited data

How the results depend on the processing

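No paired analysis was possible because each genotype label has 1 library. No replicate was left out for the same reason, and a library effect and the genotype cannot be told apart. The difference in B cell share stayed within its counting interval under each of the 10 alternatives tried, from -0.169 to -0.0524 points.

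The count of genes at least 2-fold higher was 22 in all members. It was 11 with the mean over cells, 4 after thinning to 1000 UMIs, and 12 without the cells with other-type markers. The count of genes at least 2-fold lower was 30, and it was 7 after thinning, 58 when each gene lost its top cell and 9 without those cells. With at least 3 marker UMIs asked of each member, 32 were higher and 45 lower of 453. Thinning and leaving out cells also left fewer genes to count, 255 and 397 against 610. With at least 2 UMIs asked for, Ighd was in 44.4% of B cells labelled Lcn2-ko and 33.3% of those labelled wt, and lambda chains in 7.41% of those labelled Lcn2-ko and 20.5% of those labelled wt. The demand for a second UMI removes cells by construction.

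Of 131 values of shares, counts and list medians 121 stayed within the limits set for them (the counting interval of a share, and a change of 1.5 times for a count or a list median) and 10 moved. Several list medians near 0 changed sign within these limits. The lowest value was -0.10 for the identity list, -0.22 for receptor signalling, -0.28 for lineage factors, -0.09 for the follicular list, -0.32 for interferon gamma and -0.35 for immediate-early genes. The medians of MHC class II (0.19 to 0.90) and activation (0.26 to 0.68) stayed above 0 in every alternative tried. Of 198 values of single genes 181 stayed, 14 moved and 3 turned. The log2 ratio of Pgk1 turned to -0.55 with its top cell left out and to -0.26 without the cells with other-type markers, and that of Thbs1 to 0.23 without them. Most of their UMIs in 1 library or both lay in the cells left out.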

Other observations

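Cell cycle genes were sparse in B cells. Of 20 genes 11 were measured, and the list summed to 2358 CPM in B cells labelled Lcn2-ko and 1861 CPM in B cells labelled wt, against 5017 CPM in T cells labelled Lcn2-ko and 5003 CPM in T cells labelled wt. Mki67, a marker of cycling cells, had 0 UMIs labelled Lcn2-ko and 1 labelled wt. Hmgb2, a chromatin protein gene of that list, had 45 UMIs in 18 cells labelled Lcn2-ko and 39 UMIs in 22 labelled wt.

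The survival and innate receptor list summed to 2705 CPM in B cells labelled Lcn2-ko and 2245 CPM in B cells labelled wt, against 2716 CPM in T cells labelled Lcn2-ko and 2689 CPM in T cells labelled wt. Tnfrsf13c, which encodes the BAFF receptor, had 4 UMIs labelled Lcn2-ko and 3 labelled wt, and Cd40 had 3 labelled Lcn2-ko and 1 labelled wt. Il2rg, the common cytokine receptor chain, had 30 UMIs in 18 cells labelled Lcn2-ko and 25 UMIs in 18 labelled wt. Mcl1, a survival factor gene, had 34 UMIs in 15 cells labelled Lcn2-ko and 58 UMIs in 26 labelled wt.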
